A study of Mus musculus with 4 samples.

Results

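Blood-retina barrier transporters are the carriers, pumps and receptors with which endothelial cells of the retina and brain feed neural tissue and keep other molecules out. Here 10 such genes, of 32285 mouse genes counted, were followed in hyaloid vessels, the transient vessels of the vitreous body: Slc2a1, Slc7a5, Slc3a2, Slc16a1, Slc38a5, Mfsd2a, Abcb1a, Abcg2, Slco1c1 and Tfrc. They were listed by name as textbook barrier genes, with earlier results of these data known. The question was how much of this set hyaloid endothelial cells carry, beside pericytes of the same vessels and with or without endothelial GPR124, a WNT7A/B co-receptor.

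Vitreous bodies of postnatal day 6 littermates were pooled by genotype, 7 Gpr124 fl/fl mice into 1 suspension and 9 Gpr124 dEC/dEC mice into another. All mice carried 2 floxed Gpr124 alleles and were given tamoxifen over the first days of life. The Gpr124 dEC/dEC mice also carried VECad-Cre-ERT2, a tamoxifen-dependent recombinase driven by the vascular endothelial cadherin promoter, which is active in endothelial cells throughout the body, and the Gpr124 fl/fl controls had no Cre. Cells of each suspension were sorted through a CD31 (endothelial) gate into 1 plate and a PDGFRB (pericyte) gate into another, 384 wells each, and sequenced by SORT-seq, which counts transcripts by unique molecular identifiers (UMIs). The Gpr124 dEC/dEC PDGFRB plate also received some CD31-gate cells. Since each genotype was 1 suspension, the 2 plates of a genotype are not biological replicates, and no test between genotypes was possible.

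The barrier set works by division of labor. SLC2A1 (GLUT1) lets glucose through, SLC7A5 (LAT1) pairs with SLC3A2 (CD98 heavy chain) to exchange large neutral amino acids, and MFSD2A carries lysophospholipids with omega-3 fatty acids and restrains transcytosis. ABCB1A (P-glycoprotein) and ABCG2 (BCRP) pump drugs and xenobiotics back into the blood. In brain and retinal endothelium WNT/β-catenin signaling is known to switch on much of this set.

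Well totals were first scaled so that all plates had the same median. Of 1536 wells, 1478 then held under 1000 UMIs and 11 over 8000, and 42 of the 47 between these limits had a mitochondrial share under 10%. Endothelial cells were the wells with Cldn5 and without Pdgfrb UMIs (11 cells, 31048 UMIs, median 3020 per cell), and pericytes the reverse (21 cells, 80460 UMIs, median 3750), which left out 3 wells with both markers and 7 with neither. All 15 endothelial marker genes had UMIs in the endothelial cells, with 140 summed UMIs per 10000 against 9.82 in pericytes. The pericyte markers had 56 UMIs against 1655. These lists include Cldn5 and Pdgfrb, each 0 in the other class by the rule. Cldn5 gave 68 of the 434 endothelial marker UMIs in endothelial cells, and Pdgfrb 135 of the 1655 in pericytes. The rest came from genes that the rule did not use. Lens and pigment markers had no UMIs in the endothelial cells and macrophage markers 4, whereas erythroid markers, mainly haemoglobin, reached 84, 63 and 87 UMIs in the 3 endothelial cells sorted from the PDGFRB gate of the controls and at most 5 in the other 8. Gpr124 itself, listed as Adgra2, had 2 and 1 endothelial UMIs in the control plates and 0 in both Gpr124 dEC/dEC plates, a count that allows up to 1.89 per 10000 at 3 counts per group. Control pericytes had 7 of its UMIs and Gpr124 dEC/dEC pericytes 17, so that 3 UMIs carry this check of the deletion. One list of well barcodes served all plates, and 10 of the 32 retained cells had a barcode that held at least 1000 UMIs in another plate too.

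The region around the start of transcription is shown for 4 members that had UMIs in endothelial cells, since these are the stretches in which common promoter motifs were looked for. Each runs from 250 bases before to 50 bases after the RefSeq start, written along the gene's own strand (RefSeq, GRCm38.p6): Slc2a1 at chr4:119108495-119108794 (plus), Slc3a2 at chr19:8713848-8714147 (minus), Mfsd2a at chr4:122961139-122961438 (minus) and Abcb1a at chr5:8566841-8567140 (plus). Capitals mark the ETS core CCGGAA, the TCF/LEF core CTTTGA and the hypoxia response core ACGTG on either strand.
Slc2a1: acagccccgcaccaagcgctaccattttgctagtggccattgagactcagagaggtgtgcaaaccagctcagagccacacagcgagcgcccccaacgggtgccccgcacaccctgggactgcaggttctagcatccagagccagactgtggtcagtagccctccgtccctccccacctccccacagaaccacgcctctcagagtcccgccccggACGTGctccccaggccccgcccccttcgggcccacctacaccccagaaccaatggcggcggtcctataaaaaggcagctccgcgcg
Slc3a2: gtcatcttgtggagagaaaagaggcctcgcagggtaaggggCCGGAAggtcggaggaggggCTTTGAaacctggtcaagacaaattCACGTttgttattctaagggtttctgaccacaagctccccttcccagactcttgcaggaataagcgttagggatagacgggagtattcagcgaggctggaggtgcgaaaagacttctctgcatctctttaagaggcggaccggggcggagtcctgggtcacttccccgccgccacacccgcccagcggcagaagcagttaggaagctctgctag
Mfsd2a: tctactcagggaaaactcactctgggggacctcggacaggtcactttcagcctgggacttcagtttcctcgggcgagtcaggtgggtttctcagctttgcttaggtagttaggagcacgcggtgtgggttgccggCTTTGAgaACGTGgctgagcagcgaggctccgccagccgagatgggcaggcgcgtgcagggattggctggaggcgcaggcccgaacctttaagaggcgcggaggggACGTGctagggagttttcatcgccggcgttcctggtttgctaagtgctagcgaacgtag
Abcb1a: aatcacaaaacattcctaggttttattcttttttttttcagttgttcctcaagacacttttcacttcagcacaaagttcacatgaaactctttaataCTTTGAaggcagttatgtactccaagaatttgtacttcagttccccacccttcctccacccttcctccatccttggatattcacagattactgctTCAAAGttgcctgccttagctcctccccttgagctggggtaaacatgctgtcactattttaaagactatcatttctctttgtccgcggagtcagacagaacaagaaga
The hypoxia response core stood in 8 of 12 start regions, which belong to 7 of the 9 matched members, beside 19.6% of 32851 regions in the whole table. Its palindromic form CACGTG counts once on each strand, and the 2 Tfrc regions overlap and share 1 site. The TCF/LEF core stood in 3 of the 12 (Slc3a2, Mfsd2a and, on both strands, Abcb1a) beside 16.0%, and the ETS core in 1 (Slc3a2) beside 14.9%. The GC box GGGCGG, left in lower case, stood in 7 beside 35.7%, and the amino acid response element TTGCATCA in none beside 0.895%. The table matched all members but Slc7a5. These matches describe letters and not binding, and the Abcb1a window lies 92937 bases before the start of the gene in the GENCODE annotation. The Slc3a2 window lies inside the gene in that annotation, which places the start of this minus-strand gene at 8723369.

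Slc2a1, the glucose carrier, was the most abundant member. It lies on chromosome 4 (GRCm38, 119108711 to 119137983, plus strand). In endothelial cells 11, 21, 21 and 31 UMIs were counted in the Gpr124 fl/fl CD31, Gpr124 fl/fl PDGFRB, Gpr124 dEC/dEC CD31 and Gpr124 dEC/dEC PDGFRB plates, or 17.7, 23.4, 35.5 and 31.2 UMIs per 10000. In pericytes 1, 0 and 1 UMIs were counted in the 3 plates that held any, the Gpr124 dEC/dEC CD31 plate having none of these cells. The lowest endothelial plate stood above the highest pericyte plate, at 0.555 per 10000. All 11 UMIs of that endothelial plate came from 1 of its 2 cells. How many of all genes have such a gap was not counted. Over all plates the level was 27.1 per 10000 in endothelial cells (95% interval 21.6 to 33.5, counting error only) and 0.249 in pericytes (0.0301 to 0.898), a ratio of 109 (29.2 to 913). It was seen in 10 of 11 endothelial cells and 2 of 21 pericytes, and with every cell thinned to 1000 UMIs in an expected 87.2% and 2.45%.

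Slc7a5 and Slc3a2 form 1 transporter. Slc7a5, the light chain that carries the amino acids (chromosome 8, 121881150 to 121907694, minus strand), had 1, 10, 18 and 12 UMIs in endothelial cells in the same plate order, or 1.61, 11.2, 30.4 and 12.1 per 10000, and 1, 0 and 1 UMIs in pericytes. The Gpr124 fl/fl CD31 plate was low and the Gpr124 dEC/dEC CD31 plate high, where 11 of the 18 UMIs came from a single cell of 1104 UMIs. Its pooled levels were 13.2 and 0.249 per 10000, a ratio of 53.1 (13.8 to 453).

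Slc3a2, the heavy chain that brings several light chains to the membrane (chromosome 19, 8706882 to 8723369, minus strand), had 6, 9, 8 and 8 UMIs in endothelial cells. These made 8.05 to 13.5 per 10000, with no plate standing apart. Unlike its partner it was also frequent in pericytes, with 4, 0 and 8 UMIs and 10 of 21 cells. Its pooled level was 9.98 per 10000 in endothelial cells and 1.49 in pericytes, a ratio of 6.69 (3.34 to 14.3). Both chains were found together in 8 of 11 endothelial cells and 2 of 21 pericytes, while 8 pericytes had the heavy chain without the light chain and 0 the reverse.

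Mfsd2a, the lysophospholipid carrier (chromosome 4, 122946850 to 122961188, minus strand), had 0, 3, 2 and 1 UMIs in endothelial cells, spread over 4 of 11 cells, and none in pericytes. Against the floor of 3 counts over all pericytes this was 5.18-fold higher, and the exact interval of the ratio began at 3.05. At 1.93 per 10000 it was among the sparse members.

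The efflux pumps differed in where they were found. Abcb1a (chromosome 5, 8660077 to 8748575, plus strand) had 2, 2, 4 and 5 UMIs in endothelial cells, over 7 of 11 cells, and none in the 21 pericytes. Set against 3 counts over all pericytes this was 11.2-fold higher, and the exact interval of the ratio began at 7.90. Its paralog Abcb1b had 2 UMIs in endothelial cells, and whether reads of the pair were split between them was not tested. Abcg2 (chromosome 6, 58584523 to 58695676, plus strand) was shared by both classes: 1, 11, 2 and 3 UMIs in endothelial cells and 4, 2 and 7 in pericytes, in 7 of 11 and 8 of 21 cells. Its pooled ratio of 3.39 (1.55 to 7.59) rested on the Gpr124 fl/fl PDGFRB plate. Within the plates the ratio was 8.65 (1.89 to 80.3) there, 0.723 (0.0147 to 7.31) in the Gpr124 fl/fl CD31 plate and 2.08 (0.348 to 9.13) in the Gpr124 dEC/dEC PDGFRB plate. The 11 endothelial UMIs of the Gpr124 fl/fl PDGFRB plate lay in 3 cells (6, 3 and 2) that also held 84, 63 and 87 erythroid marker UMIs. The part of erythroid material in these Abcg2 counts was not tested. At least 1 of the pumps was found in 10 of 11 endothelial cells and both in 4.

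The remaining members were nearly or wholly unseen. Slc16a1 (MCT1, the lactate and ketone carrier, chromosome 3, 104638668 to 104658462, plus strand) and Slc38a5 (SNAT5, a glutamine carrier, chromosome X, 8271133 to 8280179, plus strand) had 0 UMIs in all 32 retained cells. At this depth 0 of 31048 UMIs allows a level of up to 0.966 per 10000 in endothelial cells, and 0 of 80460 up to 0.373 in pericytes. Slco1c1 (OATP1C1, the thyroxine carrier, chromosome 6, 141524368 to 141570177, plus strand) had 1 UMI in 1 Gpr124 fl/fl endothelial cell and none in pericytes. Tfrc (transferrin receptor, the iron uptake receptor, chromosome 16, 32608920 to 32632794, plus strand) had 1, 1, 0 and 1 UMIs in endothelial cells and 2 UMIs in 1 pericyte, a ratio of 3.89 (0.445 to 46.5). A difference between the classes was not detectable at this depth for these 4 members.

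**Figure D1:**
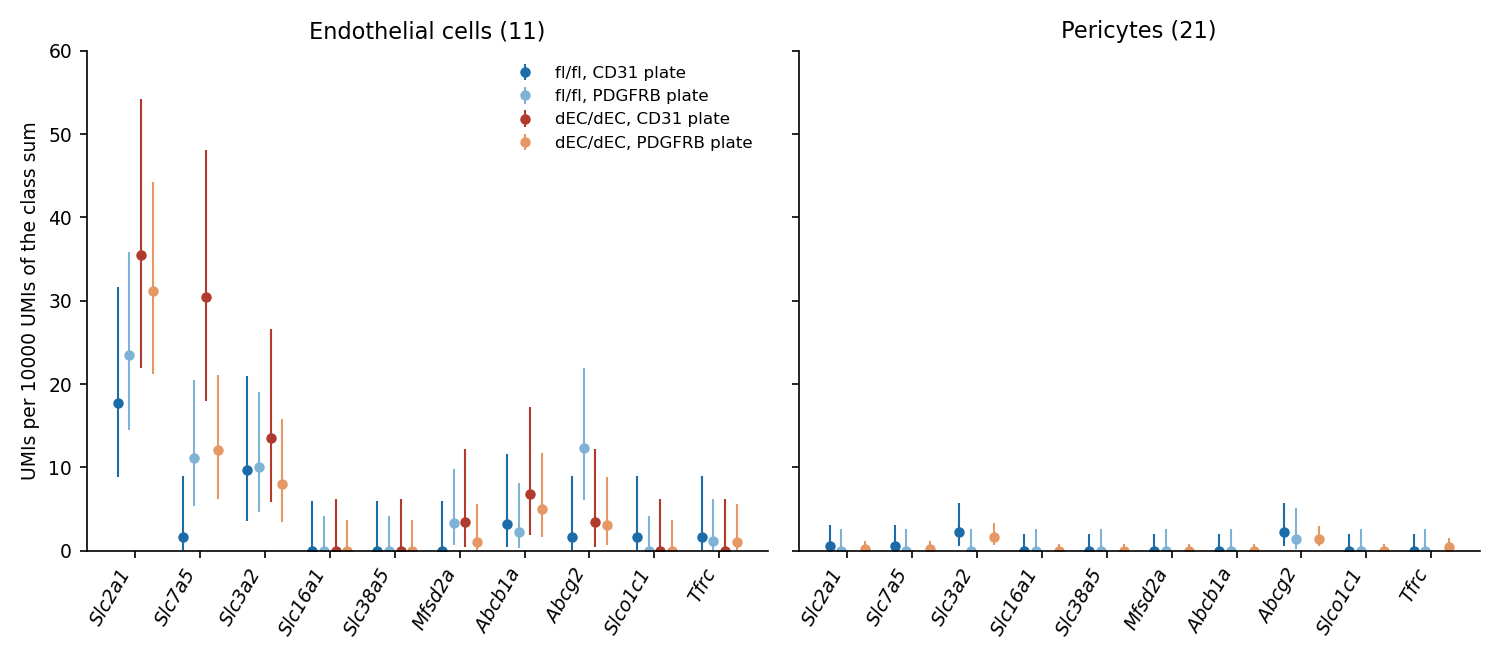
UMIs of each member per 10000 UMIs (vertical axis) in the endothelial cells (left) and pericytes (right) of each plate, with exact 95% Poisson intervals for counting error. Slc2a1 stood at 17.7 to 35.5 in the 4 endothelial sums and at or under 0.555 in the 3 pericyte sums, and Slc16a1 and Slc38a5 were at 0 in all 7.

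Endothelial cells and pericytes were then compared over the 4 and 3 sums per class and plate with edgeR's quasi-likelihood test, in which plates and not cells are the replicates. The plates of a genotype share a suspension, so the p-values measure the spread between plates only. Slc2a1 was higher in endothelial cells by a log2 fold change of 5.99 (SE 0.63, Benjamini-Hochberg adjusted p = 8.07e-19) and Slc7a5 by 4.98 (SE 0.97, adjusted p = 2.40e-06). This fit left out that 3 plates gave sums of both classes. With plate as a block Slc2a1 was at 5.94 (SE 0.69, edgeR adjusted p = 6.88e-15) and Slc7a5 at 4.43 (SE 1.33, adjusted p = 0.00451). These 2 members were the only ones among the 148 genes that passed the expression filter, of which 10.1% were called higher and 24.3% lower in endothelial cells. Both passed only through their endothelial sums, where they are high, so they had to differ, and their number supports nothing. Without the Gpr124 dEC/dEC CD31 plate Slc7a5 was no longer tested, and without the Gpr124 dEC/dEC PDGFRB plate its adjusted p was 0.0379 (edgeR). Without the filter 10829 genes were tested and 0.462% called higher, and 3 of the 8 tested members were among them: Slc2a1, Slc7a5 and Abcb1a (log2 fold change 5.20, SE 1.40, adjusted p = 0.0140). Slc3a2 (1.90, SE 0.66, adjusted p = 0.126), Mfsd2a (4.13, SE 1.62, adjusted p = 0.231) and Abcg2 (0.85, SE 0.72, adjusted p = 0.572) did not pass. Erythroid markers moved with the class as well, at 77.9 per 10000 in endothelial cells and 7.33 in pericytes. In the Gpr124 fl/fl CD31 plate, where the endothelial cells had none, the ratio of Slc2a1 between the classes was 31.8 (4.63 to 1370). All 11 endothelial UMIs of Slc2a1 in that plate came from 1 of its 2 cells. The part of erythroid material in the class difference was not tested. Fitted values of genes without pericyte UMIs depend on the prior count and are not bounds. The median over the 8 members was 3.03, beside -1.15 over all 10829 genes. Over the 148 genes that passed the filter the median was 0.0221, so the -1.15 depends on genes with few UMIs. The distance between 3.03 and -1.15 is therefore no measure of the set.

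Other barrier genes were found on both sides. None of the 42 further carriers, pumps and receptors passed the filter, and of the 37 tested without it 1 was higher and 2 lower in endothelial cells, where over all 10829 genes 0.462% were higher and 1.74% lower. Slc38a2, a neutral amino acid carrier that takes up glutamine, was higher by 3.24 (SE 0.80, adjusted p = 0.00510), with 6, 4, 7 and 11 UMIs in the endothelial sums and 0, 0 and 4 in the pericyte sums. Lrp1, a scavenger receptor, was lower by 5.13 on the log2 scale (SE 0.90, adjusted p = 5.44e-06), with 1 endothelial and 71 pericyte UMIs. Slc19a1, the reduced folate carrier, had 0 endothelial and 20 pericyte UMIs (adjusted p = 0.0292). The zinc carriers Slc39a8 and Slc39a10 had 10 and 9 UMIs in endothelial cells and none in pericytes, with adjusted p = 0.0502 and 0.0782.

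The transcellular route was followed through 10 caveola and fenestra genes. Of these Plvap, the diaphragm protein of fenestrae and caveolae that barrier endothelium loses, was higher in endothelial cells without the filter, by 4.31 (SE 1.05, adjusted p = 0.00413), with 1, 5, 4 and 11 UMIs in the endothelial sums and 1 in pericytes. Cavin1, a caveolar coat protein, was lower (7 against 52 UMIs, edgeR adjusted p = 0.0414). None of the other genes of this list passed in either direction. Summed over the 10 genes the level was higher in endothelial cells, at 30.9 per 10000 against 13.8 in pericytes. By plate these sums ran from 21.2 to 43.4 in endothelial cells and from 11.8 to 20.6 in pericytes. Cavin1 thus went against the direction of the summed list. Of 11 iron handling genes 10 were tested and 0 passed in either direction, at an adjusted p of at least 0.562 (edgeR).

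**Figure D2:**
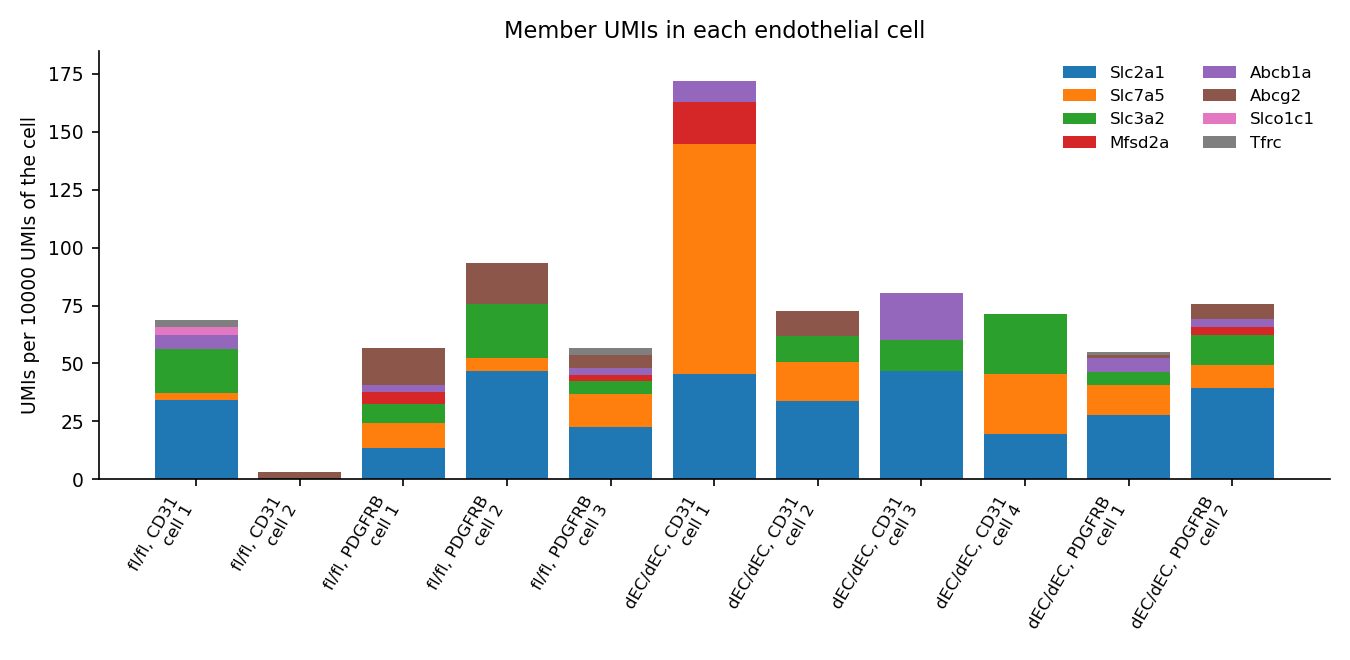
Member UMIs per 10000 UMIs of the cell (vertical axis, stacked by member) in each of the 11 endothelial cells. Summed levels ran from 3.31 in 1 Gpr124 fl/fl cell of the CD31 plate to 172 in 1 Gpr124 dEC/dEC cell of the CD31 plate, the other 9 lying between 55.1 and 93.3.

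Cell by cell, the summed members ran from 3.31 to 172 per 10000 in endothelial cells (median 71.4) and from 0 to 19.5 in pericytes (median 2.65). Endothelial cells had UMIs of 1 to 7 members (median 4), and pericytes of 0 to 3 (median 1), with 7 pericytes at none. A single endothelial cell fell inside the pericyte range. This Gpr124 fl/fl cell of the CD31 plate had 3020 UMIs, 7 of Cldn5 and UMIs of 11 of the 15 endothelial markers, and 1 UMI of Abcg2 but none of Slc2a1, Slc7a5 or Slc3a2. It also had 12 pericyte marker UMIs, where its neighbor in the same plate had 11. Its pericyte marker level of 39.7 per 10000 was the highest of the 11 endothelial cells. The medians were 11.7 in Gpr124 fl/fl and 14.5 in Gpr124 dEC/dEC endothelial cells. Whether this was a mixed well was not tested. At the other end, 1 Gpr124 dEC/dEC cell of the CD31 plate had 11 Slc7a5, 5 Slc2a1, 2 Mfsd2a and 1 Abcb1a UMIs in 1104, with a mitochondrial share of 8.44%, the highest of the 11.

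By pooled level in endothelial cells the members ranked Slc2a1, Slc7a5, Slc3a2, Abcg2, Abcb1a, Mfsd2a, Tfrc and Slco1c1, at 27.1, 13.2, 9.98, 5.48, 4.19, 1.93, 0.966 and 0.322 UMIs per 10000. SORT-seq counts the 3′ end of each transcript once, so these levels were not divided by gene length. Only the first step was larger than its counting interval, Slc2a1 over Slc7a5 by 2.05 (1.39 to 3.05) and in 4 of 4 plates. Abcg2 stood above Abcb1a in 1 of 4 plates, the Gpr124 fl/fl PDGFRB plate with 11 of its 17 UMIs. Each later pair of neighbors was within counting error, from Slc7a5 over Slc3a2 at 1.32 (0.809 to 2.18) onward.

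Among the 148 genes that passed the filter, the pattern over the 7 sums most like that of Slc2a1 was that of Cldn5 (Pearson's r = 0.972), the tight junction gene that defined the class, followed by Col18a1 (0.966), which encodes a basement membrane collagen, and Tsc22d1 (0.948). For Slc7a5 it was Flt1 (0.987), a VEGF receptor, followed by Sat1 (0.923). All 7 points share the split into endothelial and pericyte sums and their plates, so these values are descriptions.

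In endothelial cells the genotypes were compared by pooled counts, as a ratio of Gpr124 dEC/dEC over Gpr124 fl/fl with an exact interval that covers counting error only. The summed members stood at 73.1 per 10000 in 6 Gpr124 dEC/dEC cells (116 of 15864 UMIs) and 52.7 in 5 Gpr124 fl/fl cells (80 of 15184), a ratio of 1.39 (1.03 to 1.87). Without Slc7a5 the ratio was 1.19 (0.859 to 1.66) and without Slc2a1 1.28 (0.864 to 1.90), so that leaving out either member brought equal levels into the interval. Slc7a5 was at 18.9 against 7.24, a ratio of 2.61 (1.27 to 5.77). It was the only member of 5 with at least 10 UMIs whose interval lay above 1, and none lay below, while over 538 genes of that depth 7.06% lay above and 4.65% below. For Slc2a1 the ratio was 1.56 (0.983 to 2.50), for Slc3a2 1.02 (0.473 to 2.22), for Abcb1a 2.15 (0.601 to 9.57) and for Abcg2 0.399 (0.110 to 1.22). These intervals include equal levels. Mfsd2a had 3 UMIs in each genotype.

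The ratio was not the same in the plates of the 2 gates, a difference that was not tested. The Gpr124 dEC/dEC PDGFRB plate also received some CD31-gate cells, in wells that were not identified. Its 2 endothelial cells may have come through either gate, so the comparison is between plates. Within the CD31 plates the summed members were at 92.9 against 36.9 per 10000, a ratio of 2.51 (1.52 to 4.29). The lower value came from 2 cells, 1 at 68.6 and 1 at 3.31 per 10000. Between the same sums endothelial markers stood at 167 against 114 per 10000 and pericyte markers at 15.2 against 36.9, and their part was not tested. Within the PDGFRB plates the summed members were at 61.4 against 63.6, a ratio of 0.964 (0.661 to 1.41). For Slc7a5 the ratio was 18.9 (2.99 to 788) within the CD31 plates and 1.08 (0.428 to 2.79) within the PDGFRB plates. For Abcg2 it was 2.10 (0.109 to 124) and 0.246 (0.0440 to 0.930). The 11 control UMIs behind the 0.246 lay in the 3 endothelial cells with 63 to 87 erythroid marker UMIs, whose part was not tested. Slc2a1 (2.01, 0.925 to 4.61, and 1.33, 0.740 to 2.44) and Abcb1a (2.10, 0.301 to 23.2, and 2.25, 0.369 to 23.7) were above 1 in both pairs of plates, with intervals that include equal levels.

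These values rested on few cells. Leaving out each endothelial cell in turn moved the ratio of the summed members between 1.13 (0.839 to 1.52, without the Gpr124 fl/fl cell with 1 member UMI) and 1.65 (1.19 to 2.29), and that of Slc7a5 between 1.78 (0.804 to 4.13, without the Gpr124 dEC/dEC cell with 11 Slc7a5 UMIs) and 3.67. Without 1 plate the ratio of the summed members ran from 1.15 to 1.98. That of Slc7a5 was 1.69 without the Gpr124 fl/fl CD31 plate, 11.8 without the Gpr124 fl/fl PDGFRB plate, 1.67 without the Gpr124 dEC/dEC CD31 plate and 4.20 without the Gpr124 dEC/dEC PDGFRB plate. Marker levels moved with the genotype as well. The endothelial marker list, like the summed members, was higher in Gpr124 dEC/dEC endothelial cells, at 157 per 10000 (138 to 178) against 122 (105 to 141), with medians over cells of 170.0 and 122. Erythroid markers ran from 0 to 367 per 10000 in Gpr124 fl/fl endothelial cells (3 of 5 cells with any, median 227) and from 0 to 32.4 in Gpr124 dEC/dEC cells (3 of 6 cells with any, median 4.53), and the part of either list in the result was not tested. With the erythroid genes taken out of the totals the ratio of the summed members was 1.37. Depth moved with genotype too, since the control endothelial cells had a median of 3205 UMIs and the Gpr124 dEC/dEC ones 1663.

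**Figure D3:**
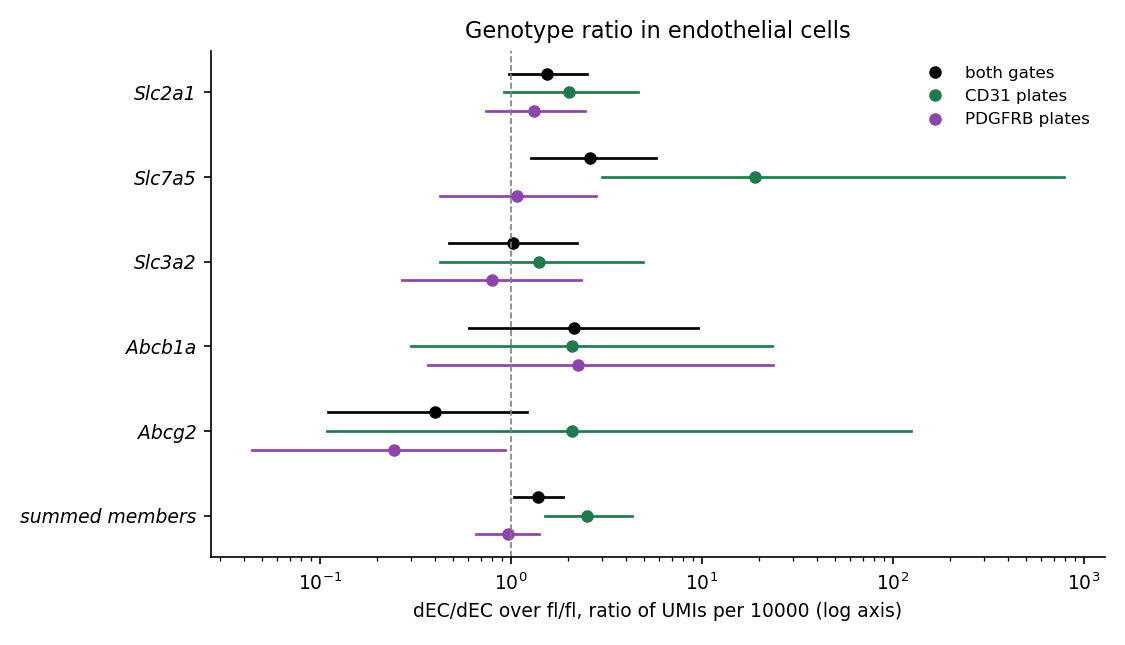
Ratio of UMIs per 10000 in endothelial cells, Gpr124 dEC/dEC over Gpr124 fl/fl (horizontal log axis), for the members with at least 10 UMIs and for all members summed, with exact 95% intervals for counting error. The summed ratio was 2.51 in the CD31 plates and 0.964 in the PDGFRB plates.

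In pericytes the summed members did not differ beyond counting error, at 3.93 per 10000 in 12 Gpr124 dEC/dEC cells (19 of 48351 UMIs) and 3.74 in 9 Gpr124 fl/fl cells (12 of 32109), a ratio of 1.05 (0.485 to 2.38). Only Slc3a2 (ratio 1.33, 0.356 to 6.03) and Abcg2 (0.775, 0.223 to 2.79) had at least 10 UMIs. Neither interval lay above or below 1, where over 1915 genes of that depth 3.86% lay above and 2.87% below. Within the PDGFRB plates the summed ratio was 2.77 (0.668 to 24.5), on 19 and 2 UMIs.

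The wells outside the limits held most of the remaining member UMIs. In the 1478 wells under 1000 UMIs the members summed to 199 of 225601 UMIs, or 8.82 per 10000 (7.64 to 10.1), which was 7.16 (5.85 to 8.76) times below endothelial cells and 2.29 (1.56 to 3.46) times above pericytes. Slc3a2 led there with 79 UMIs, ahead of Slc2a1 with 39, Abcg2 with 22 and Slc7a5 with 21. These wells carried erythroid markers at 215, pericyte markers at 111 and endothelial markers at 9.35 per 10000. The 135 of them with at least 10 erythroid UMIs, a limit chosen after the values were seen, had 14.1 member UMIs per 10000 against 8.11 in the other 1343, a ratio of 1.74 (1.19 to 2.49). By gate, the summed members stood at 10.1 in the CD31 and 9.38 in the PDGFRB plate of Gpr124 fl/fl (ratio 1.08, 0.749 to 1.56), and at 10.4 and 5.91 in those of Gpr124 dEC/dEC (1.76, 1.09 to 2.86). In the same order pericyte markers stood at 122 and 96.9 in Gpr124 fl/fl and at 93.1 and 127 in Gpr124 dEC/dEC. Endothelial markers stood at 9.98 and 9.84, and at 9.59 and 8.04. In Gpr124 fl/fl these markers did not follow the gate, so the ratios compare plates and not cell types.

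Slc16a1, unseen in the retained cells, was found in these other wells. It had 13 UMIs in 13 wells under 1000 UMIs (2, 4, 2 and 5 by plate) and 8 UMIs in wells above 8000. The latter lay in 2 wells, with 3 UMIs in a Gpr124 fl/fl well of 9274 UMIs and 5 in a Gpr124 dEC/dEC well of 7758 UMIs before scaling, both from PDGFRB plates and both without Cldn5 and Pdgfrb. Leading genes were Tsc22d1, Ptma and Pax6 in the former and Tpt1, Eef1a1 and Col9a1 in the latter, ribosomal, mitochondrial and unnamed genes left aside, and of 8 retinal glia and astrocyte markers both had Dkk3 (20 and 22 UMIs) and Glul (17 and 6). Of the other 6 Slc1a3 had 2 UMIs in the former and Aqp4 2 in the latter, and Gfap, Rlbp1, Pax2 and S100b had none in either. The same 2 wells held 5 and 2 UMIs of Slc2a1. Slc38a5 had 6 UMIs in wells under 1000 and none elsewhere, a level of 0.266 per 10000 that lies under what a count of 0 allows in either class.

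Of the 11 wells above 8000 UMIs 8 had Pdgfrb UMIs and none had Cldn5, and 1 of the others had 234 macrophage marker UMIs. A Gpr124 fl/fl well of the CD31 plate with 11 Pdgfrb and 169 pericyte marker UMIs had 4 UMIs of Abcb1a, which the 21 retained pericytes lacked. The 3 wells with both markers had 5 member UMIs and the 7 with neither also had 5, or 3.40 (1.10 to 7.94) and 5.05 (1.64 to 11.8) per 10000.

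**Figure D4:**
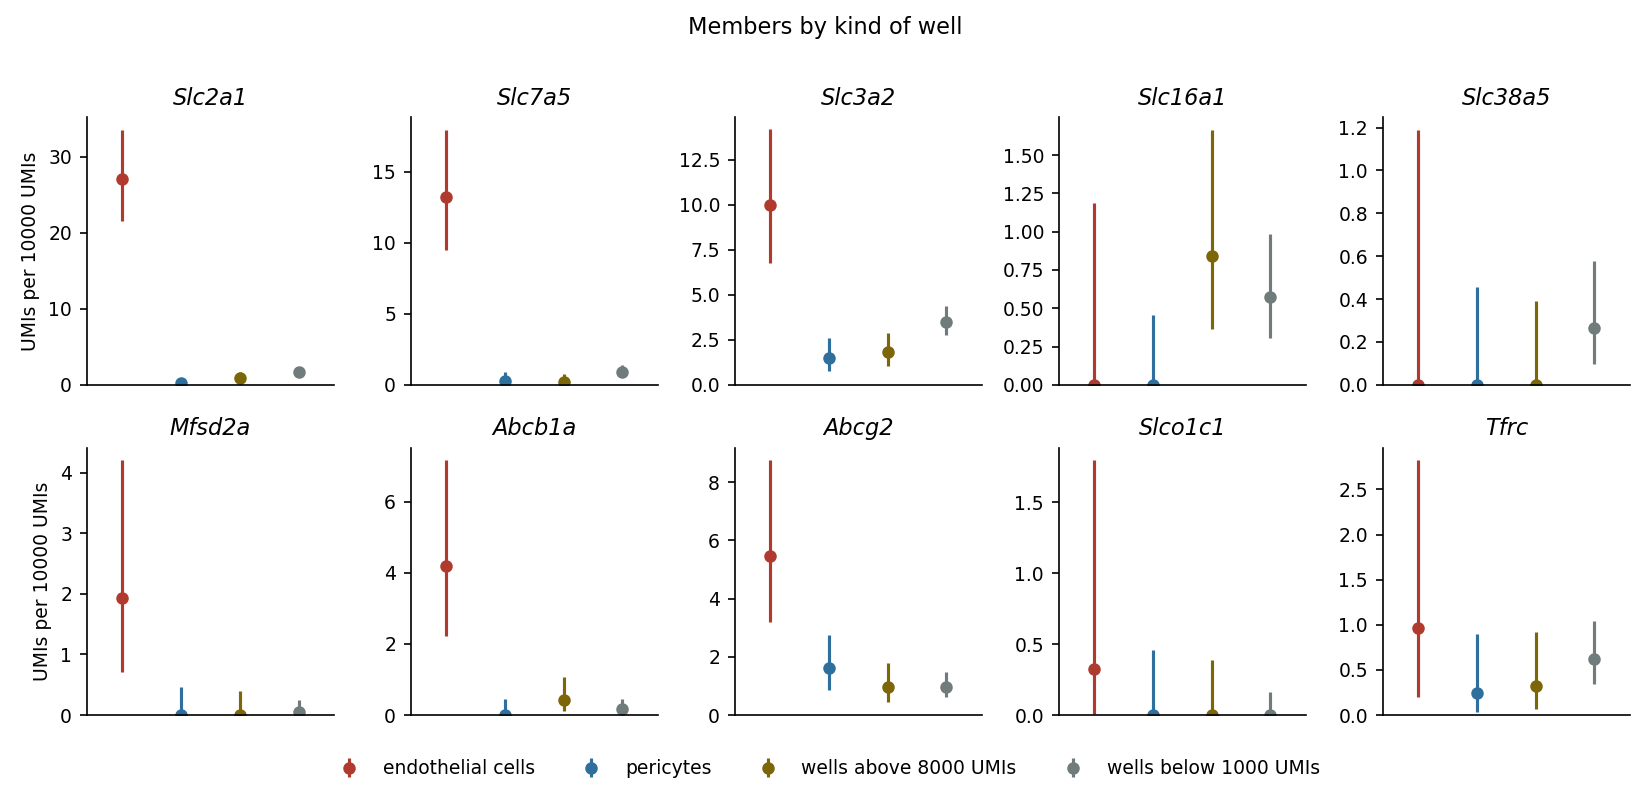
Level of each member (vertical axes, UMIs per 10000, each on its own scale from 0) in endothelial cells, pericytes, the 11 wells above 8000 UMIs and the 1478 wells below 1000 UMIs, with exact 95% Poisson intervals. Slc2a1 and Slc7a5 were highest in endothelial cells, while Slc16a1 was at 0 in both classes and at 0.844 and 0.576 per 10000 in the wells above and below the limits.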

How the data were processed

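SORT-seq was run on 4 plates of 384 wells, 2 per genotype. Per the labels and the study's methods, reads were mapped to GRCm38 and UMIs counted by STARsolo 2.7.11b (submitters' processing notes). The values the authors deposited are estimated counts for each gene in each well, not scaled. The larger ones are not whole, as after a correction for UMI collisions. The annotation they used was not given in the sources used here. The gate of each plate was read from the study's sorting scheme, since the labels give only the genotype.

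Spike-ins (92 features) were left out. Well totals were multiplied so that every plate median equalled the highest (factors 1 to 1.93), and wells with 1000 to 8000 scaled UMIs and a share under 10% over 13 mitochondrial genes were kept. Sums used rounded counts. Filters follow the study's methods, but the numbers of pericytes per genotype differ from the study's, and clustering was not repeated. Doublets were not called, as 32 cells are too few, and wells with both markers were left out by the rule. Plate totals ran from 51972 to 174645 UMIs of mouse genes, with 47.5% to 73.1% of all UMIs in spike-ins.

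Classes were compared over class-by-plate sums with edgeR 4.0.16 (TMM, filterByExpr, glmQLFit and glmQLFTest, Benjamini-Hochberg, adjusted p under 0.05), with DESeq2 1.42.0 as an alternative. The edgeR test gives no SE. Each SE printed with an edgeR value is the absolute log2 fold change divided by the square root of the F statistic. Intervals are exact at 95% (Poisson for levels, conditional binomial for ratios) and cover counting error only. The floor was 3 counts over a group. On simulated data 200 genes were given a change in each run. Of these, 39 at a log2 change of 2 and 63 at a log2 change of 3 passed the filter. The class fit recovered 38 of the 39 (0 of 112 unchanged genes called) and 63 of the 63 (1 of 102 called), and the genes removed by the filter were not tested. The ratio interval held the true value for 197 of 200 genes in endothelial cells and 194 of 200 in pericytes.

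Members and lists were chosen with earlier results of these data known. All members are named, with list genes under an adjusted p of 0.05 in the class comparison, read from the unfiltered fit since none of 3 lists passed the filter, and the 3 genes most like each tested member with at least 30 UMIs, 1 of which is not reported here. Slc39a8, Slc39a10 and the leading genes of single wells were chosen with their values in view. Positions are from GENCODE vM21. Slc2a1, Slc7a5, Slc16a1 and Abcb1a overlap small annotated genes, which had 0 UMIs where they were counted. The strand setting was not stated.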

Additional observations from a re-analysis of the deposited data

Results flagged for a closer look

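The ratio between genotypes in endothelial cells went in opposite directions in the plates of the 2 gates for the summed members (2.51 in the CD31 plates and 0.964 in the PDGFRB plates) and for Slc3a2 (1.40 and 0.801). The Gpr124 dEC/dEC PDGFRB plate also held some CD31-gate cells. The difference between gates was not tested, with 1 plate per gate and genotype, and the interval of each ratio other than the 2.51 includes equal levels.

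In wells under 1000 UMIs the ratio of CD31 over PDGFRB plates also pointed both ways between genotypes, untested, for Slc2a1 (0.606 in Gpr124 fl/fl and 3.34 in Gpr124 dEC/dEC) and for Abcg2 (2.06 and 0.715). All 4 intervals include equal levels.

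Slc16a1 was at 0.656 UMIs per 10000 in the wells outside the UMI limits, 21 UMIs in all, above the 0.269 that a count of 0 allows in all retained cells pooled, where it had none. Most of their UMIs are from pericytes. In endothelial cells alone a count of 0 allows 0.966 per 10000, so that a level as in the other wells was not detectable there.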

How the results depend on the processing

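With cells classed by the gate of their plate, edgeR called 0 genes and 0 members (7 genes at an unadjusted p under 0.05), and the genotype ratio of the summed members was 6.03 in the CD31 wells. The CD31 plate of Gpr124 fl/fl held 6 pericytes by markers. Without the expression filter 238 genes were called, against 51 with it. With totals not scaled 17 genes were higher and 25 lower, against 15 and 36. With no upper limit on UMIs, and with totals not scaled, 1 member was called, as Slc7a5 no longer passed the filter. Leaving out 1 plate gave 32 to 54 genes and 1 to 2 members, the 32 without Gpr124 dEC/dEC replicate 2 and the 1 without Gpr124 dEC/dEC replicate 1, where Slc7a5 was not tested. With plate as a block, 46 genes and 2 members were called. With the replicate number as a block, 51 genes and 2 members were called. The replicate numbers mark the gate and not shared animals. The endothelial genotype ratio of the summed members (1.39) ran from 1.13 to 1.65 without 1 cell and from 1.15 to 1.98 without 1 plate, the 1.98 without Gpr124 fl/fl replicate 2, and was 2.51 within the CD31 and 0.964 within the PDGFRB plates. The alternatives within gates and without 1 cell were added after the data were seen. The pericyte ratio (1.05) ran from 0.708 to 2.77, the 2.77 without Gpr124 fl/fl replicate 1, and has no value without Gpr124 dEC/dEC replicate 2. Slc2a1 was higher in endothelial cells in each alternative, past the threshold in all but the gate one (log2 fold change 1.20, edgeR adjusted p = 0.9998). Of 272 alternative values 245 kept their direction and call or stayed within the counting interval. This tally includes members under 10 UMIs with wide intervals and settings that left the endothelial cells unchanged, so it is no measure of stability. With 11 endothelial cells of 2 suspensions, genotype and suspension cannot be told apart, and members under 10 UMIs allow no ratio of use.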
